A study of Homo sapiens with 26 samples.

Results

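The comparison set ribosome footprints of HEK293FT cells beside those of HEK293T cells. It used 8 of the 26 libraries of the series. They were chosen by cell line and depletion as the labels and column names give them, and the deposited tables were joined by transcript identifier. HEK293FT contributed 2 libraries, 1 undepleted and 1 depleted of ribosomal RNA with custom oligos. HEK293T contributed 6 libraries, 2 undepleted, 2 treated with Ribo-Zero Gold and 2 treated with RiboCop. The 2 HEK293T libraries treated with NEBNext were left out of every test and are given beside some results.

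The series tested ways of removing ribosomal RNA from ribosome profiling libraries. Both lines were grown in DMEM with serum and lysed in the presence of cycloheximide, and RNase I digestion left the mRNA fragments that ribosomes cover. Fragments of 15 to 35 nt are labelled for all 8 libraries. No library in the labels carries a drug treatment of living cells or an engineered allele beyond the line itself. Nothing in the labels says that libraries of a line came from separate cultures. The p-values below therefore measure the spread between libraries, which may be technical.

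HEK293T and HEK293FT are both derivatives of HEK293, a human embryonic kidney line transformed with adenovirus DNA. HEK293T carries the SV40 large T antigen, and HEK293FT is a fast-growing isolate that also expresses large T and is used to package lentivirus. A footprint count reflects both how much of an mRNA is present and how densely ribosomes occupy it, so the values below are footprint abundances and not mRNA levels. Each line was profiled in its own experiment. A difference between the lines cannot be told apart from a difference between the experiments, and levels set side by side come from separately made tables. In libraries made from bulk lysates, a change in some of the cells and a change in every cell cannot be told apart either.

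The HEK293FT libraries held 900763 and 5747772 counts on coding sequences, and the HEK293T libraries 120019 to 421521. Levels are given as CPM, the count scaled to a library total of 1000000. A gene at 3 counts over a whole line corresponded to 0.451 CPM in HEK293FT and 2.01 CPM in HEK293T. Markers of HEK293 lines summed to 1499 and 1520 CPM in the HEK293FT libraries and to between 1825 and 2261 CPM in the HEK293T libraries. The same list summed to 2156 to 2355 CPM in 3 undepleted K562 libraries, so the sum does not mark HEK cells. Of the 7 markers tested, NEFM, CDH2, KRT18 and NEFL were lower in HEK293FT and none was higher. With DESeq2, KRT18 (adjusted p 0.0955) and NEFL (adjusted p 0.302) did not pass, nor did they in the undepleted libraries alone (adjusted p 0.873 and 0.163). Neurofilament light chain NEFL and vimentin (VIM) were present in both lines, whereas the kidney factors PAX2 and LHX1 had at most 12 counts over either line. Of 17 erythroid markers, which summed to 13888 to 14912 CPM in the same K562 libraries, 11 had no count in either HEK line. The erythroid sum was 7.77 and 9.39 CPM in HEK293FT and 0 to 13.0 CPM in HEK293T. Of 11 fibroblast and HeLa markers the cell cycle inhibitor CDKN2A took most of the sum, with a mean of 203 CPM in HEK293FT and 150 CPM in HEK293T, and 2 had no count in either line.

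Of 6451 genes tested with edgeR's quasi-likelihood test, 2045 passed an adjusted p of 0.05, which is 31.7% of the genes tested. In HEK293FT 1037 genes were higher (16.1%) and 1008 were lower (15.6%). The count was 1068 without the oligo-depleted HEK293FT library, which holds most of that line's counts, and DESeq2 called 1057 genes. The RiboCop libraries differed by no more than the sampling noise, and with both summed to 1 library 2094 genes were called. A call together with a difference of at least 2-fold was made for 236 genes (3.66%), of which 91 were higher and 145 lower. For 1572 genes (24.4%) the 2 HEK293FT libraries lay on one side of all 6 HEK293T libraries, 515 above and 1057 below. Overlap was judged here and below on counts over the library total. Using the undepleted libraries alone, 1 against 2, the test called 361 of 3995 genes (9.04%), 246 higher and 115 lower. Fold changes are log2 values after scaling by the trimmed mean of M-values (TMM), and CPM values are counts over the library total. Scaling by library totals in place of TMM moved the median gene by -0.13 on the log2 scale, and the calls then split into 663 higher and 1626 lower.

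**Figure D1:**
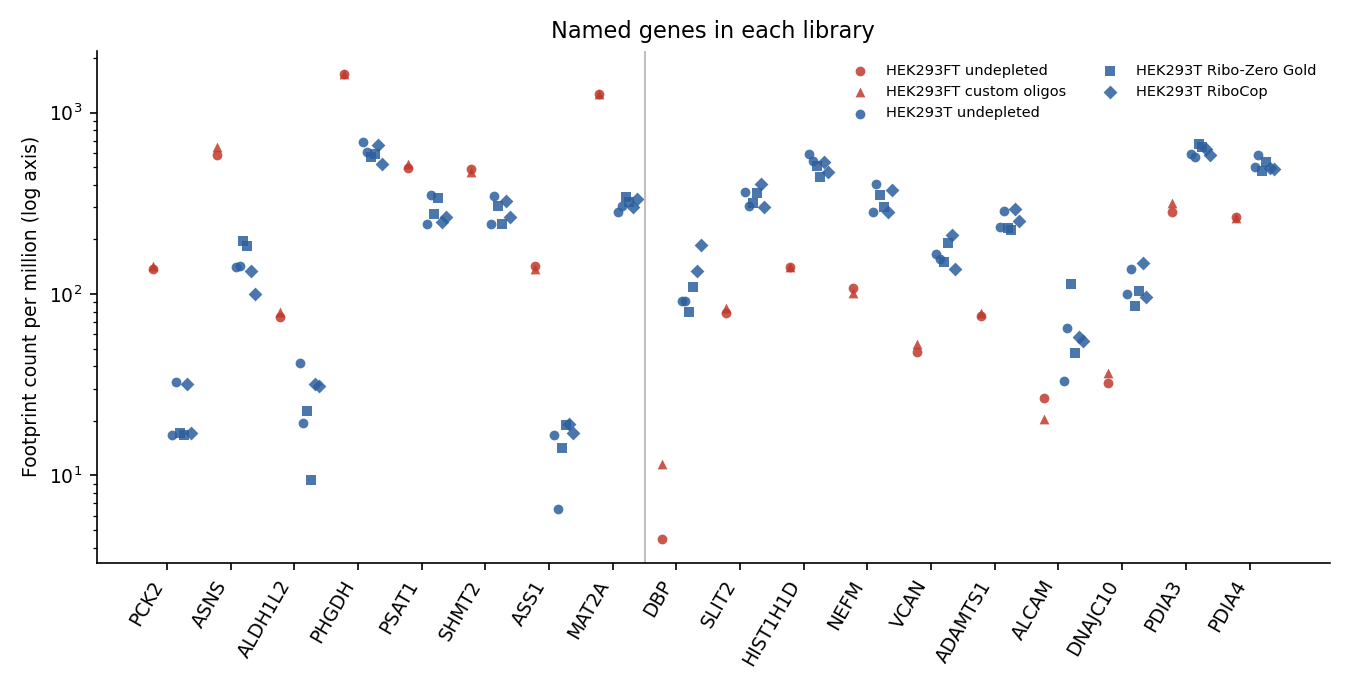
Footprint level in CPM (log axis) of 18 genes in each of the 8 libraries, with HEK293FT in red and HEK293T in blue and the symbol giving the depletion. The 8 genes left of the grey line lie higher in both HEK293FT libraries than in any HEK293T library, and the 10 genes right of it lie lower.

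The genes that rose most in HEK293FT outside the mitochondrial genome included enzymes of amino acid and one-carbon metabolism. Enzymes of this kind make asparagine, serine, glycine and arginine. In many cells several of their genes are switched on through ATF4, the transcription factor of the integrated stress response, when amino acids run short. PCK2, the mitochondrial phosphoenolpyruvate carboxykinase, lies on chromosome 14 from 24094138 to 24104130 (GRCh38) with 10 exons. It stood at 138 CPM in the undepleted and 143 CPM in the oligo-depleted HEK293FT library, against a lowest, median and highest value of 16.6, 17.1 and 32.6 CPM in HEK293T. The lines did not overlap, which was a condition for choosing the genes with the largest rises and falls. The difference was 7.69-fold (log2 fold change 2.94 ± 0.20 SE, adjusted p 5e-45).

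ASNS, asparagine synthetase, is encoded on the minus strand of chromosome 7 from 97852118 to 97872542. Its level was 586 CPM in the undepleted and 643 CPM in the oligo-depleted HEK293FT library. In HEK293T it ran from 99.8 through a median of 143 to 196 CPM. Both HEK293FT libraries were therefore above every HEK293T library, including the 2 NEBNext libraries at 225 and 159 CPM, and the log2 fold change was 2.12 ± 0.09 (SE, adjusted p 3.68e-104). The promoter of ASNS holds a match to TGATGNAA, the shared core of the C/EBP-ATF response elements through which ATF4 acts. That match begins 68 bases before the start site.

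The motif is shown here because ATF4 is known to act through it. TGATGNAA was searched on both strands of RefSeq promoters (GRCh38.p14, 250 bases before to 50 after each start), where 3.62% of 35116 promoters hold it. Of 32 tested members of a list of integrated stress response targets, 27 had a promoter in the table and 12 of these held the motif. The 5 sequences are the members with a single match that lies wholly before the start site. Capitals mark the match, which reads as its reverse complement in AARS and GARS.
ASNS: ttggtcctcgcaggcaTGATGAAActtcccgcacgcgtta
CEBPG: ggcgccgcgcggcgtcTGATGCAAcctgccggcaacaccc
AARS: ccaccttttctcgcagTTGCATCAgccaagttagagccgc
GARS: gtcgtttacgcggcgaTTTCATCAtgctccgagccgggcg
SLC1A5: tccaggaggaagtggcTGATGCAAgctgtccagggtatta

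These 40-base stretches lie at chr7:97872453-97872492 on the minus strand (ASNS), chr19:33374055-33374094 on the plus strand (CEBPG), chr16:70289670-70289709 on the minus strand (AARS), chr7:30594829-30594868 on the plus strand (GARS) and chr19:46784888-46784927 on the minus strand (SLC1A5). ASNS was the 1 of the 12 members with the motif that passed the test upward, and TARS, threonyl-tRNA synthetase, was the 1 that passed it downward (log2 fold change -0.33). CEBPG, a partner of ATF4, was at 0.15 with an adjusted p of 0.715, and the glutamine transporter SLC1A5 was at 0.15 with an adjusted p of 0.141. The alanyl- and glycyl-tRNA synthetases AARS and GARS were at 0.21 (adjusted p 0.0594) and 0.07 (adjusted p 0.587). Of the 15 members whose promoters do not hold these letters, 8 passed upward and 3 downward. A match is a description of the letters and no evidence of binding.

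In the full list of integrated stress response targets, 13 of the 32 tested members were higher in HEK293FT, 4 were lower and 15 did not pass, against 16.1% higher and 15.6% lower over all genes. The median log2 fold change of the list was 0.20, beside -0.01 over all genes, and was 0.07 with scaling by library totals. The 44 listed genes summed to 8440 and 8528 CPM in the HEK293FT libraries and to 6200 to 6742 CPM in the HEK293T libraries. After PCK2, ASNS and ALDH1L2 the largest rises of the list were in serine and glycine synthesis. PHGDH, the first enzyme of serine synthesis, stood at 1621 and 1630 CPM in the HEK293FT libraries against 523 to 692 CPM (median 597) in HEK293T, a 3.01-fold difference (log2 fold change 1.59 ± 0.06, adjusted p 8.08e-135). PSAT1, the next enzyme, was at 493 and 520 CPM against 242 to 352 CPM (median 271), with a log2 fold change of 0.94. SHMT2, which turns serine into glycine in mitochondria, was at 488 and 471 CPM against 242 to 345 CPM (median 285), with a log2 fold change of 0.89. None of these ranges overlapped.

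PSPH, the last step of serine synthesis, did not share this pattern, with a log2 fold change of -0.36 and an adjusted p of 0.345. ALDH1L2, the mitochondrial formyltetrahydrofolate dehydrogenase, had few counts in HEK293T (34 over the 6 libraries) and rose by 1.91 ± 0.22 on the log2 scale (adjusted p 7.4e-17). In the undepleted libraries alone the difference for ALDH1L2 was 1.47 with an adjusted p of 0.0727. The proline enzyme PYCR1 (0.76), cystathionine beta-synthase CBS (0.77), seryl-tRNA synthetase SARS (0.82) and the stress-induced mTORC1 inhibitor DDIT4 (0.89) also rose. With all libraries thinned to the shallowest, SARS was at 0.46 and did not pass edgeR's test (adjusted p 0.136). ATF4 itself was at 0.17 with an adjusted p of 0.396. ALDH18A1 and SLC38A2, an enzyme of proline synthesis and an amino acid transporter, fell by 0.46 and 0.41 on the log2 scale.

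Of 28 tested genes of serine, folate and nucleotide synthesis, 4 were higher and 2 lower, a share of higher genes near the 16.1% over all genes, and 3 of the 4 were PHGDH, PSAT1 and SHMT2. Of 20 tRNA synthetases, 6 were higher and 4 lower, against 16.1% and 15.6% over all genes. After scaling by library totals 3 were higher and 7 lower. With the trend on GC content and coding length removed, 9 of 19 were higher and 1 lower. In that fit 24.7% of all genes passed in either direction. LARS, the leucyl synthetase, was 0.60 higher on the log2 scale and VARS, the valyl synthetase, fell by 0.54.

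ASS1, argininosuccinate synthase, joins citrulline to aspartate in arginine synthesis. It is encoded on chromosome 9 from 130444962 to 130501274 in 16 exons. HEK293FT libraries held 143 and 137 CPM, and HEK293T libraries 6.52 to 19.2 CPM with a median of 16.9. The lowest HEK293FT value was thus far above the highest HEK293T value, and a lack of overlap was a condition for choosing this gene. ASS1 had 24 counts over the 6 HEK293T libraries, and the highest of them rests on 3 counts. The log2 fold change was 3.22 ± 0.21 (adjusted p 6.87e-48), or 9.35-fold. MAT2A, which makes S-adenosylmethionine, had 1270 and 1271 CPM in HEK293FT and 283 to 342 CPM (median 313) in HEK293T. Its difference was 4.33-fold (log2 fold change 2.12 ± 0.07, adjusted p 7.55e-171).

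One large rise differed from the others in how its libraries behaved. ABCA13, a very long lipid transporter gene with 62 exons, was at 425 CPM in the undepleted and 223 CPM in the oligo-depleted HEK293FT library, against 16.6 to 52.1 CPM in HEK293T. The NEBNext libraries held 7.50 and 0 CPM. Between 2 experiments on K562 cells the same gene was at 67.6 CPM (mean of 2 libraries) and 5.26 CPM (1 count). The K562 library with 1 count carries a label that names NEBNext. ABCA13 thus varied between libraries of 1 line as well as between lines, and the part of depletion in its log2 fold change of 3.15 was not tested.

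All 13 mRNAs encoded by the mitochondrial genome were higher in HEK293FT. These mRNAs are translated inside mitochondria, by mitochondrial ribosomes, and encode core subunits of the respiratory chain and ATP synthase. Their summed footprints were 9617 CPM in the undepleted and 11983 CPM in the oligo-depleted HEK293FT library. In HEK293T the sum ran from 2869 to 4602 CPM with a median of 4016, and the Ribo-Zero Gold pair was lowest at 2869 and 3084 CPM. The NEBNext libraries stood between, at 5026 and 7226 CPM. No HEK293T library reached the HEK293FT values.

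**Figure D2:**
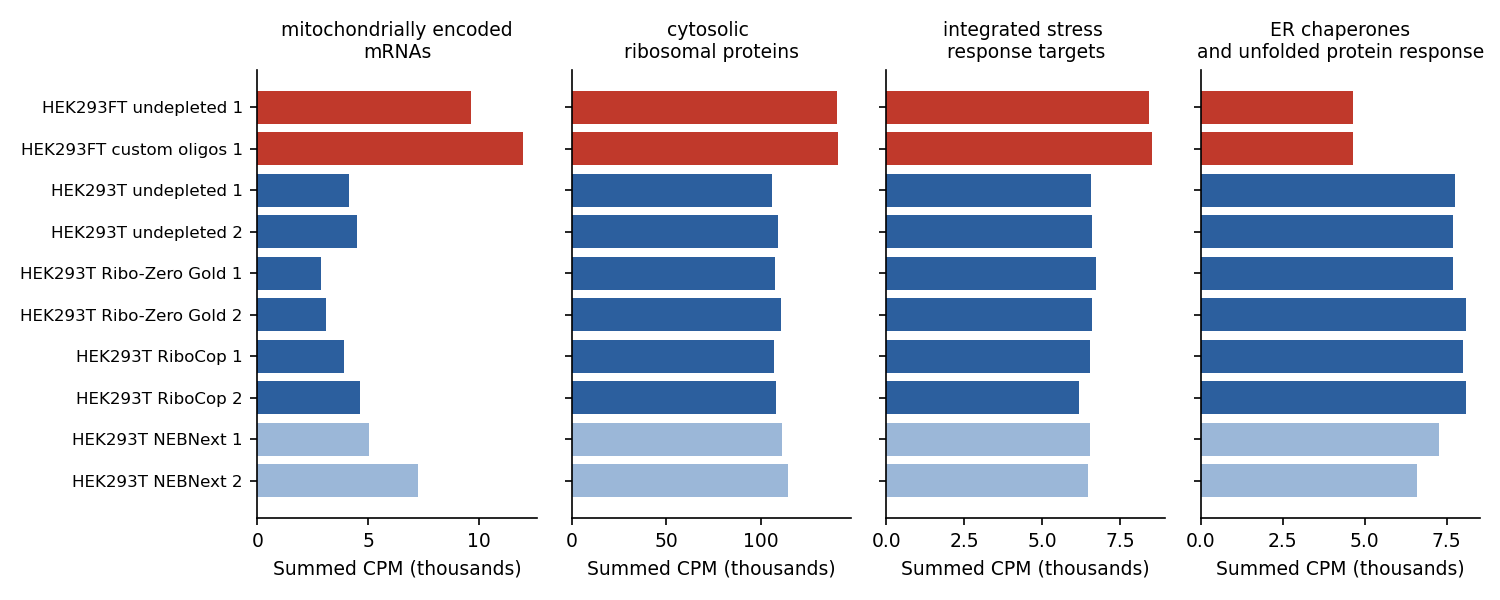
Summed CPM of 4 gene lists in each library, with HEK293FT in red, the 6 tested HEK293T libraries in dark blue and the 2 untested NEBNext libraries in light blue. Both HEK293FT bars are longer than all HEK293T bars for the first 3 lists and shorter for the list of endoplasmic reticulum (ER) chaperones, at 4631 and 4644 CPM against 7689 to 8102 CPM in the dark blue bars.

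By complex, the complex I subunit MT-ND3 differed most. It had 364 and 424 CPM in HEK293FT, and 0 to 41.3 CPM (median 22.8) over 36 counts in HEK293T, with a log2 fold change of 4.20 ± 0.16 (adjusted p 2.29e-143). MT-ND4L, MT-ND2 and MT-ND1 followed at 3.22, 2.83 and 2.56, and MT-ND4, MT-ND5 and MT-ND6 rose by 1.74, 1.71 and 1.01. In complex IV, MT-CO2 rose by 2.87 on the log2 scale, MT-CO3 by 1.39 and MT-CO1 by 0.92. MT-CO2 had 1503 and 1835 CPM against 185 to 371 CPM. The complex III subunit MT-CYB rose by 1.24, and the ATP synthase subunits MT-ATP8 and MT-ATP6 by 2.88 and 2.53. MT-ATP8 overlaps MT-ATP6, and MT-ND4L overlaps MT-ND4, so reads in the overlaps could count for either.

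The rise was smaller between the undepleted libraries, where 12 of the 13 passed the test (9.04% of all genes did) and the median was 1.95 in place of 2.53. Without the Ribo-Zero Gold libraries all 13 passed, with a median of 2.22. Between the 2 experiments on K562 cells the median of the 13 genes differed by 0.37. Nuclear genes of the respiratory chain had a smaller difference. Of 76 tested, 25 were higher and 8 lower, against 16.1% and 15.6% over all genes, with a median of 0.11. This order turned to 16 higher and 20 lower with scaling by library totals and to 8 higher and 15 lower once the trend with GC content and coding length was removed. COX7A2 (0.76), NDUFB7 (0.75) and NDUFS8 (0.75) rose, while COX6C fell by 0.42 and NDUFA9 by 0.40. COX7A2 stood at 375 and 438 CPM in the NEBNext libraries of HEK293T, above the HEK293FT libraries at 330 and 324 CPM.

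**Figure D3:**
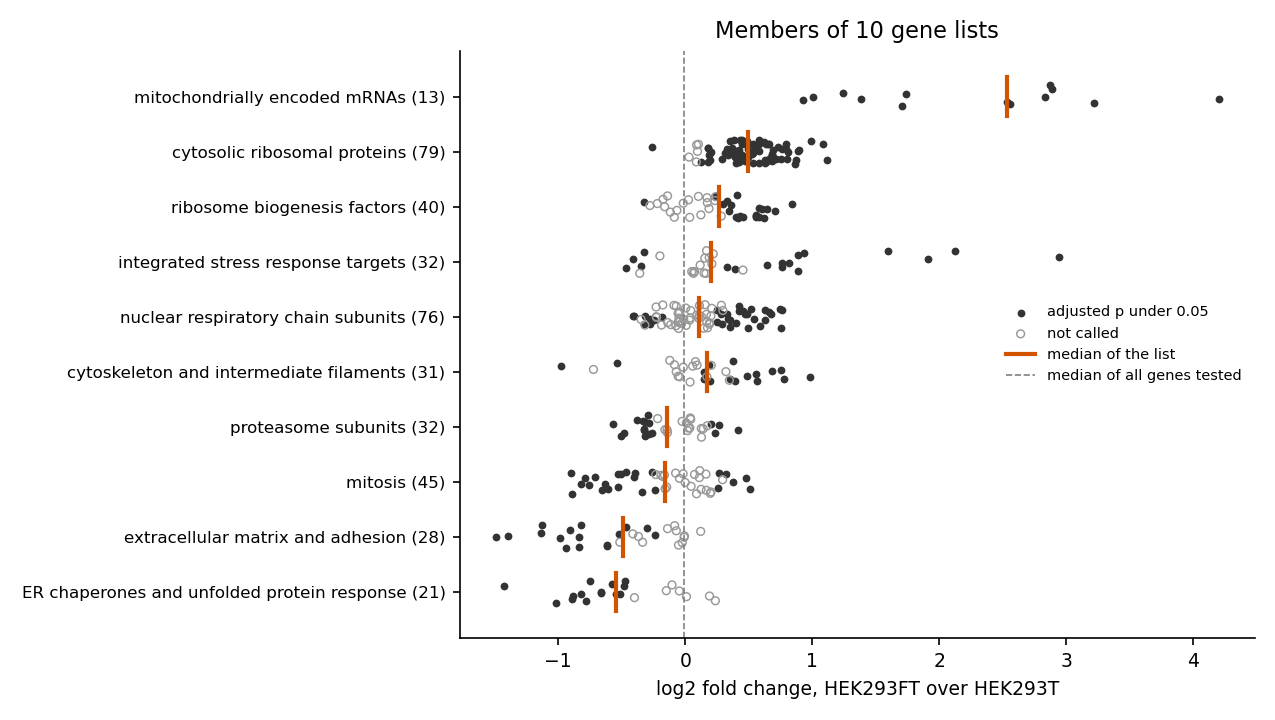
log2 fold change of HEK293FT over HEK293T for the tested members of 10 lists, with the number tested in brackets, filled points for adjusted p under 0.05 and an orange bar at each median. The mitochondrially encoded mRNAs lie furthest right with a median of 2.53, the ribosomal proteins form a tight group around 0.49, and the ER and matrix lists lie left of the dashed median of all genes.

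Cytosolic ribosomal protein genes rose nearly as one group. Of 79 tested, 73 were higher, 1 was lower and 5 did not pass, and the median log2 fold change was 0.49. Over all genes 16.1% were higher and 15.6% lower. With GC content and coding length taken into account, 56 of 66 were higher (24.7% of all genes passed in either direction in that fit) and the median was 0.35. In the undepleted libraries alone, with 1 HEK293FT library, the median of the 79 genes was 0.48. The sum of the 79 genes was 140302 and 140573 CPM in the HEK293FT libraries and 105983 to 110478 CPM in the HEK293T libraries. Between the 2 K562 experiments the median of these genes differed by -0.02.

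The small subunit proteins RPS14 and RPS27 were at the top of the group. RPS14 was at 2356 and 2196 CPM in HEK293FT against 1005 to 1341 CPM (median 1149) in HEK293T, a log2 fold change of 1.11 ± 0.05 (adjusted p 2.79e-92). RPS27 was at 1267 and 1289 CPM against 542 to 750 CPM, a log2 fold change of 1.08 ± 0.06, but the 2 untested NEBNext libraries of HEK293T held 1058 and 940 CPM and lay nearer to HEK293FT. RPS26 was the single ribosomal protein gene called lower, at -0.26. RPLP0, RPLP1, RPL24, RPL34 and RPSA were between 0.03 and 0.10 and did not pass. Many ribosomal protein genes have near-identical processed copies in the genome, and how reads matching several places were counted is not given in the sources used here.

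Ribosomal protein mRNAs usually begin with a 5′ terminal oligopyrimidine tract, a C at the cap followed by a run of C and T in the DNA, through which growth signals set their translation together. The start sites of 5 ribosomal protein genes and the elongation factors EEF2 and EEF1A1, picked with their values known, are shown to let the tract be read directly. Each line runs from 10 bases before to 20 bases after the RefSeq start (GRCh38.p14), and capitals mark a C followed by at least 4 bases that are C or T, beginning within 2 bases of the start.
RPS14: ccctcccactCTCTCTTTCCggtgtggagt
RPS27: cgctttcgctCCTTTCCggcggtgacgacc
RPS3: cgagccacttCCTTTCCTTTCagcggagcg
RPS28: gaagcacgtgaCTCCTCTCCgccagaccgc
EEF2: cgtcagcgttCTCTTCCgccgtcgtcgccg
EEF1A1: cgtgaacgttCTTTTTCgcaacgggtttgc
RPS4X: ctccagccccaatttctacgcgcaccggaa

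The stretches lie at chr5:150449720-150449749 (RPS14, minus strand), chr1:153990752-153990781 (RPS27, plus), chr11:75399508-75399537 (RPS3, plus), chr19:8321486-8321515 (RPS28, plus), chr19:3985444-3985473 (EEF2, minus), chr6:73521013-73521042 (EEF1A1, minus) and chrX:72277229-72277258 (RPS4X, minus). Of the 7, RPS4X has no tract at the listed start, and its log2 fold change was 0.34. Over 63 ribosomal protein genes with a promoter in the table, 51 (81.0%) held the tract at a listed start, against 16.9% of 5346 tested genes and 10.5% of all promoters. Of the 51, 46 were higher and none lower, with a median log2 fold change of 0.53. Of the 12 without it, 11 were higher and 1 lower, with a median of 0.47. Over all genes tested 16.1% were higher and 15.6% lower.

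Outside the ribosomal proteins, genes with and without the tract had nearly the same median. Among 854 other tested genes that hold it, 137 were higher and 133 lower, with a median log2 fold change of -0.03. Among 4429 that do not, 648 were higher and 685 lower, with a median of -0.02. A shorter list of 19 other mRNAs described as carrying the tract had 10 higher and 1 lower, against 16.1% and 15.6% over all genes. The list had 7 higher and 2 lower with scaling by library totals. Its largest rises were the elongation factors EEF1G (0.70), EEF2 (0.66) and EEF1A1 (0.65), which load and move tRNA on the ribosome, and EIF3F (0.61), a subunit of initiation factor eIF3. With all libraries thinned to the shallowest, EIF3F was at 0.47 and did not pass edgeR's test (adjusted p 0.0823). EEF2 stood at 6559 and 6441 CPM in HEK293FT and 4287 to 4816 CPM in HEK293T. EIF3E, another eIF3 subunit, fell by 0.27.

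Ribosome assembly factors rose with the ribosomal proteins in part. Of 40 tested, 20 were higher, 1 was lower and 19 did not pass, with a median of 0.26, against 16.1% higher and 15.6% lower over all genes. With scaling by library totals 12 were higher and 7 lower, and in the undepleted libraries alone 2 were higher and none lower, with a median of 0.18, where 9.04% of all genes passed. RRP9, a U3 snoRNP protein, and DKC1, the pseudouridine synthase dyskerin, rose by 0.84 and 0.70, and NHP2 and RRP12 rose by 0.64 and 0.62. In the undepleted libraries alone RRP9 was at 0.20 (adjusted p 0.825), NHP2 at 0.40 (adjusted p 0.207) and RRP12 at 0.75 (adjusted p 0.102), and with all libraries thinned to the shallowest RRP9 was at 0.49 (adjusted p 0.46) and RRP12 at 0.12 (adjusted p 0.876). WDR75 fell by 0.32.

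The fall in HEK293FT was most uniform for chaperones and folding enzymes of the ER. These proteins fold and disulfide-bond secreted and membrane proteins, and the unfolded protein response raises many of them together. Of 21 tested, 14 were lower and none was higher, against 15.6% and 16.1% over all genes, and the median log2 fold change was -0.55. The list of 25 genes summed to 4631 CPM in the undepleted and 4644 CPM in the oligo-depleted HEK293FT library. The 6 HEK293T libraries held 7689 to 8102 CPM with a median of 7868. The HEK293FT values were below all HEK293T values, including the NEBNext libraries. With the trend on GC content and length removed, 14 of 21 were again lower and none higher. In that fit 24.7% of all genes passed in either direction.

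The disulfide isomerase PDIA3 was at 284 and 318 CPM in HEK293FT and at 567 to 675 CPM (median 610) in HEK293T, with a log2 fold change of -0.89 ± 0.08 (adjusted p 1.28e-28). Its relative PDIA4 was at 265 and 263 CPM against 478 to 580 CPM (median 496), a log2 fold change of -0.82 ± 0.08 (adjusted p 1.72e-21). The reductase DNAJC10 fell furthest in the list, with 32.2 and 36.5 CPM against 85.4 to 147 CPM (median 102), or 2.69-fold lower (log2 fold change -1.43 ± 0.16, adjusted p 7.43e-17). The lectin chaperone calreticulin (CALR), GRP94 (HSP90B1) and BiP (HSPA5) fell by 0.78, 0.75 and 0.66 on the log2 scale, and the oxidase ERO1A by 0.89. With all libraries thinned to the shallowest, ERO1A was at -0.97 and did not pass edgeR's test (adjusted p 0.181). The response regulator XBP1 (0.24, adjusted p 0.414) did not pass, nor did HERPUD1 (0.19, adjusted p 0.515). Among cytosolic and mitochondrial heat shock proteins the calls were mixed. Of 25 tested, 8 were higher and 5 lower, against 16.1% and 15.6% over all genes. HSPB1 (1.06) and DNAJB1 (1.04) rose, and HSPA4L fell by 0.99. Between the undepleted libraries HSPA4L was at -0.67.

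Genes of the extracellular matrix and of cell adhesion also fell. Of 59 listed genes, 28 had enough counts to be tested, 16 of those were lower and none was higher, with a median of -0.49. Over all genes 15.6% were lower and 16.1% higher. After removal of the GC and length trend 12 of 24 were lower, where 24.7% of all genes passed in either direction. In the undepleted libraries alone, with 1 HEK293FT library, the median of 20 tested members was -0.53, beside -0.02 over all genes. The cell adhesion molecule ALCAM, on chromosome 3 from 105366909 to 105576900, had 26.6 and 20.5 CPM in HEK293FT and 33.3 to 114 CPM (median 56.4) in HEK293T. ALCAM fell 2.81-fold (log2 fold change -1.49 ± 0.21, adjusted p 4.68e-11). One NEBNext library of HEK293T, at 15.0 CPM, was as low as HEK293FT and the other, at 79.6 CPM, was not. N-cadherin (CDH2) fell by 1.14, the integrin subunits ITGA6 and ITGB1 by 1.40 and 0.84, and the laminin chain LAMC1 by 0.91. Fibronectin (FN1) was at -0.34 with an adjusted p of 0.138.

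Among the largest falls of the whole table were further matrix, guidance and junction genes. SLIT2, a secreted axon guidance ligand on chromosome 4 from 20253564 to 20620557, was at 78.8 and 83.5 CPM in HEK293FT and at 303 to 403 CPM (median 337) in HEK293T. SLIT2 was 3.73-fold lower (log2 fold change -1.90 ± 0.11, adjusted p 1.52e-65), and the NEBNext libraries, at 443 and 413 CPM, lay with HEK293T. The matrix proteoglycan versican (VCAN) was at 47.7 and 52.9 CPM against 138 to 211 CPM, and the metalloprotease ADAMTS1 at 75.5 and 78.1 CPM against 225 to 294 CPM. Their log2 fold changes were -1.55 ± 0.14 and -1.53 ± 0.12. The tight junction proteins CXADR and OCLN fell by 1.82 and 1.56. Each of these genes was lower in both HEK293FT libraries than in all 6 HEK293T libraries, which was a condition for choosing the largest falls.

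The gene that fell furthest was DBP, a transcription factor that follows the circadian clock. It is on the minus strand of chromosome 19 from 48630030 to 48637438, with 4 exons. DBP had 4.44 and 11.5 CPM in HEK293FT against 79.7 to 186 CPM (median 100) in HEK293T, a 10.0-fold difference (log2 fold change -3.33 ± 0.20, adjusted p 2.5e-57). The scaffold proteins IQGAP2 and IQGAP1, which link small GTPases to actin, fell by 2.74 ± 0.30 and 1.66 ± 0.23 on the log2 scale. IQGAP2 had 3.33 and 8.18 CPM in HEK293FT and 39.8 to 83.3 CPM in HEK293T. Neurofilament medium chain NEFM, a mark of the neural character of HEK293 lines, had 108 and 101 CPM against 282 to 404 CPM (median 327) and fell by 1.58 ± 0.10 (adjusted p 3.64e-48). NEFL, its light chain partner, fell by 0.32 with overlapping libraries, a call that DESeq2 did not make.

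Of the 24 genes with the largest rises and falls, 7 were mitochondrially encoded. Both NEBNext libraries of HEK293T, which no test used, lay nearer to HEK293T for 22 of the 24, the exceptions being ALCAM and MT-ATP6 with 1 library each. In the undepleted libraries alone 18 of the 24 passed, and with the GC and length trend removed all 24 did. The 6 that did not pass in the undepleted libraries were the falls of DBP, IQGAP2, IQGAP1, CXADR, OCLN and ALCAM. Their log2 fold changes there were -4.14 for DBP (adjusted p 0.127, 4 counts in HEK293FT), -4.21 for IQGAP2 (adjusted p 0.278), -1.86 for IQGAP1, -1.49 for CXADR, -1.49 for OCLN and -0.78 for ALCAM, and ALCAM was the 1 whose difference was much smaller than with all libraries. No gene with a high level was restricted to 1 line. Of 353 genes with over 3 counts in HEK293FT and none in HEK293T, 33 were above the level that 3 counts across HEK293T correspond to, and the others could be missed at that depth. The potassium channel gene KCNH8 had the highest mean, with 11.1 and 11.3 CPM, at least 5.61-fold over the limit of 3 counts across HEK293T. NUPR1, a stress-induced nuclear protein gene, came next by mean CPM with 29 counts, at least 2.17-fold over that limit. In the other direction 4 genes had over 3 counts in HEK293T and none in HEK293FT, and the highest by mean CPM was GLS2, mitochondrial glutaminase, with 4 counts in 4 libraries.

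Smaller groups showed both directions, and their counts stand against 16.1% higher and 15.6% lower over all genes. For the cytoskeleton, 14 of 31 genes were higher and 2 lower, but 7 were higher and 6 lower with scaling by library totals. Gamma-actin (ACTG1) was at 5877 and 5958 CPM against 3535 to 3939 CPM and rose by 0.78, and beta-actin (ACTB) rose by 0.56, while the actin crosslinker filamin A (FLNA) fell by 0.98. ACTB and ACTG1 are near-identical, so reads could be split between them. Of 32 proteasome subunits, 13 were lower and 4 higher, with a median of -0.14. With the GC and length trend removed 6 were lower and none higher, where 24.7% of all genes passed in either direction. In the undepleted libraries alone, with 1 HEK293FT library, the median was -0.10. PSMA4 fell by 0.57 and PSMD2 by 0.50, and in the undepleted libraries PSMA4 was at -0.37 (adjusted p 0.194).

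Mitosis genes had 18 of 45 lower and 6 higher, with MKI67 (-0.90), ESPL1 (-0.89) and CENPF (-0.82) the furthest down. This order did not hold with the GC and length trend removed, where 5 were lower and 7 higher. The replication genes had 8 of 40 higher and 4 lower, near the shares over all genes. In cholesterol synthesis and uptake, 9 of 22 were lower and 6 higher. NSDHL, a sterol dehydrogenase of the pathway, rose by 0.74 to 180 and 159 CPM, but was at 158 and 174 CPM in the NEBNext libraries of HEK293T. Antioxidant genes had 9 of 22 higher and 2 lower. Peroxiredoxin 5 (PRDX5) rose by 1.02, and its ER relative PRDX4 fell by 0.69. Among iron genes the ferritin chains FTH1 and FTL fell by 0.96 and 0.60. Between the undepleted libraries FTH1 was at -0.75. Glycolysis stayed near the middle, with 2 of 18 higher and 2 lower. GAPDH was at 3932 and 4132 CPM in HEK293FT and 3983 to 4666 CPM in HEK293T and did not pass (adjusted p 0.403).

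**Figure D4:**
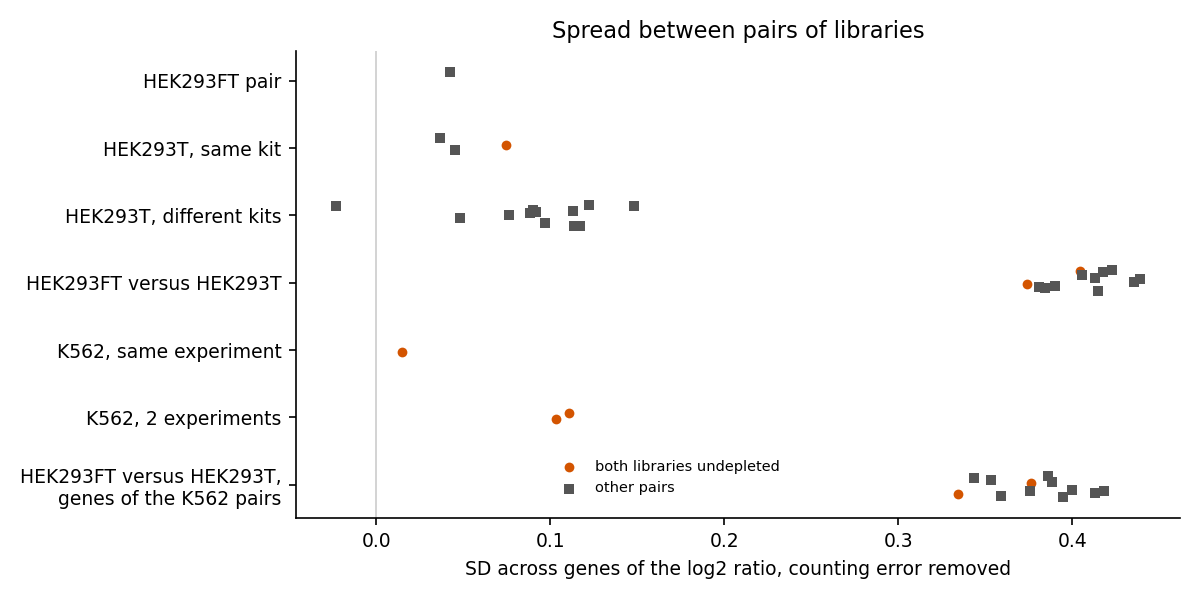
Standard deviation across genes of the log2 ratio between pairs of libraries after removal of counting error, with orange circles for pairs of undepleted libraries and grey squares for the others. The 12 pairs of HEK293FT with HEK293T lie between 0.374 and 0.439, and all pairs within a line lie at or below 0.148.

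The size of the difference between lines was set beside that between kits and replicates. Across the 418 genes whose mean count per library reached 100 in both lines, the log2 ratio of a HEK293FT to a HEK293T library had a standard deviation across genes of 0.407 ± 0.021 (SD over 12 pairs) once counting error was removed. Pairs of undepleted libraries gave 0.374 and 0.404. Replicates of a HEK293T group gave 0.037 to 0.075, HEK293T libraries of different kits -0.023 to 0.148 (a negative value means less than counting error), and the HEK293FT pair 0.042. K562 cells, profiled undepleted in 2 experiments, gave 0.103 and 0.111 over 267 genes, for which the HEK pairs gave 0.334 to 0.418. The K562 library on one side of that comparison also carries a label naming NEBNext. These pairs share libraries and are a description without a test.

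**Figure D5:**
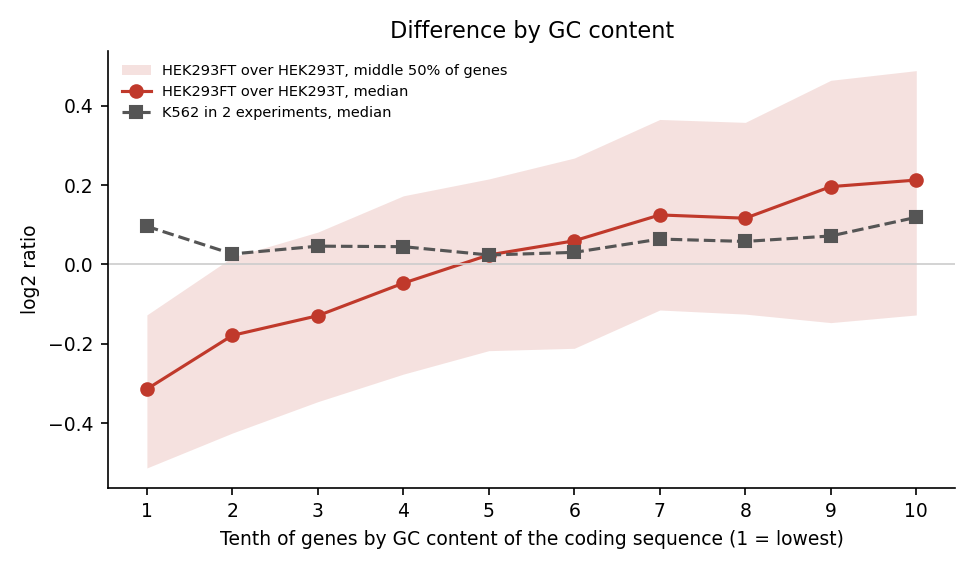
Median log2 ratio in 10 equal groups of genes ordered by the GC content of the coding sequence, for HEK293FT over HEK293T (red, with the middle 50% of genes shaded) and for K562 in 2 experiments (grey). The red line climbs from -0.31 in the lowest group to 0.21 in the highest, and the grey medians lie between 0.02 and 0.12.

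The difference between lines followed the base composition of the coding sequence. In the group of 626 genes with the lowest GC content (32.6% to 41.1%), 8 genes were higher and 212 lower, with a median of -0.31. In the group with the highest (62.7% to 78.4%), 187 were higher and 58 lower, with a median of 0.21. Across 6259 genes, which are not independent replicates, Spearman's rho of the log2 fold change was 0.37 with GC content and -0.30 with coding length. Over 1768 genes with enough counts in K562, rho with GC content was 0.05 between the 2 K562 experiments and 0.44 between the HEK lines. For single pairs of libraries (390 genes) rho with GC content ran from 0.38 to 0.49 between lines, reached 0.32 between HEK293T libraries of different kits and was 0.05 in the HEK293FT pair. With the trend on GC content and coding length removed, 1550 of 6272 genes passed (24.7%), 792 higher and 758 lower. The part of base composition in the results of single genes was not tested further.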

How the data were processed

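Values are unnormalized counts of reads on coding sequences, deposited as whole numbers for 19478 transcripts, 1 per row, per the file headers. Per the submitters' processing notes, CASAVA 1.8, STAR and the human build GRCh38 (hg38) were used; read filters, duplicates and multiply matching reads are not given in the sources used here. The normalized tables deposited beside them were not used. Rows were joined by transcript identifier, and 97.51% matched GENCODE 29.

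The quasi-likelihood test of edgeR (version 4.0.16, under R 4.3.3) compared the lines with TMM scaling, filterByExpr at a minimum count of 10, 1 term for line, 6 residual degrees of freedom and Benjamini-Hochberg adjustment over all genes tested. On simulated data of this design (5970 genes), 91.6% of 2-fold and 100% of 4-fold changes were recovered, and 3.74% of calls were false. Each simulated library was drawn independently around shared mean levels, with no difference between experiments, pairing of libraries or GC trend. The simulation therefore does not give the share of false calls in the real comparison. DESeq2 1.42.0, other scalings, filters and library sets were alternatives. Coding GC content and length came from GENCODE 29, and a local regression on both gave the trend that 1 alternative removed.

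Named genes were the 12 largest rises and falls among called genes with at least 50 CPM in the higher line and no overlap between lines, up to 4 called members per list at the same level, the 10 highest genes of each line and up to 5 genes seen in 1 line only. Other list members named in the text were picked after their values were seen. The comparison, its members and the gene lists were chosen with earlier results of these data known, and support nothing by their choice. Same-numbered HEK293T libraries deviated together from their group means (correlations 0.15 to 0.16 in all 3 pairs of groups, 418 genes), so the numbers pair HEK293T libraries; HEK293FT libraries carry no such number. The RiboCop pair differed by no more than sampling noise (chi-square per degree of freedom 1.03, p 0.103) but has separate totals and was kept as 2 libraries. Intervals and limits of 3 counts cover counting error only.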

Additional observations from a re-analysis of the deposited data

Results flagged for a closer look

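Among 29 sets of values over the 6 HEK293T libraries (the 24 genes with the largest differences and 5 list sums), 1 had a library far from the others by Dixon's test, which flags about 1 in 20 such sets by chance. The summed footprints of the integrated stress response targets were 6200 CPM in the second RiboCop library and 6543 to 6742 CPM in the other 5. This library was the lowest of the line, on the side away from the HEK293FT libraries at 8440 and 8528 CPM.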

How the results depend on the processing

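Counts of genes are by edgeR's quasi-likelihood test unless stated, and where a value moved the cause was not tested. DESeq2 called 1057 genes (516 higher, 541 lower). Fewer genes were called, and fewer were tested, in the following smaller sets of libraries or reads. The count was 361 with undepleted libraries only (246 higher, 115 lower, 115 at least 2-fold). It was 383 with every library thinned to 120019 counts (243 higher, 140 lower, 126 at least 2-fold). It was 1245 without Ribo-Zero Gold libraries (643 higher, 602 lower). In that last set 1773 of the main calls were still tested, and 1158 of them were called. Scaling by library totals gave 663 higher and 1626 lower. Leaving out 1 library at a time gave 1068 to 2002 genes, with 593 to 1018 higher and 475 to 984 lower, and the fewest without the oligo-depleted HEK293FT library. At least 2-fold calls numbered 471 with no filter, 149 with at least 50 counts in each line and 376 with HEK293T libraries summed by number.

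The mitochondrial median of 2.53 became 1.75 with at least 50 counts in each line, 2.10 when thinned and 1.95 with undepleted libraries only. The filter at 50 counts leaves out MT-ND3 and MT-ND4L, which had 36 and 37 counts in HEK293T and the largest rises of the list. The 1.75 is therefore a median over fewer genes. The ribosomal protein median of 0.49 became 0.35 with the GC and length trend removed, 0.55 with no filter, 0.45 when thinned and 0.36 with scaling by totals. The 0.35 is a median over 66 of the 79 genes. It leaves out RPS14 and RPS27, the top of the group, which had no GC content in the annotation. The median of stress response targets, 0.20, became 0.28 with 1 term per depletion group, 0.28 without Ribo-Zero Gold, 0.26 with no filter, 0.067 with scaling by totals and 0.31 with undepleted libraries only. The ER median of -0.55 became -0.63 without Ribo-Zero Gold, -0.48 with no filter, -0.77 when thinned, -0.68 with scaling by totals and -0.64 with undepleted libraries only, and ran from -0.60 to -0.54 leaving out 1 library. The matrix and adhesion median of -0.49 became -0.41 with the trend removed, -0.43 with no filter and -0.62 with scaling by totals, and ran from -0.56 to -0.44 leaving out 1 library. The mean spread between lines was 0.344 over genes with at least 500 counts.

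Of 120 named genes, reversals were seen for 3 genes of small difference: ADSL when thinned (-0.013), TPI1 with the trend removed (-0.058), and GAPDH with the trend removed (-0.086), without Ribo-Zero Gold (-0.010), with scaling by totals (-0.082) and with undepleted libraries only (-0.049). Calls were lost for 51 of 118 with undepleted libraries only, 34 of 104 when thinned (besides ADSL), 15 without the oligo-depleted HEK293FT library and 13 with DESeq2. With the HEK293T number as a replicate block, 2017 genes were called and no named call changed. The removal of Ribo-Zero Gold libraries, of the GC and length trend and of mitochondrial mRNAs, and the summing of the RiboCop pair, were chosen after seeing the data. Depth limits low genes most, since the shallowest HEK293T library held 120019 counts.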

Other observations

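Histone genes were examined after the data had been seen. Of 62 tested genes with the HIST prefix, 40 were higher in HEK293FT and 5 lower, with a median log2 fold change of 0.30. Over all genes 16.1% were higher and 15.6% lower. With the trend on GC content and coding length removed, 15 were higher and 23 lower, with a median of -0.08. In that fit 24.7% of all genes passed in either direction. The linker histone gene HIST1H1D went the other way from the group. It was at 141 CPM in both HEK293FT libraries and at 444 to 592 CPM (median 520) in HEK293T, a log2 fold change of -1.69 ± 0.09 (edgeR's quasi-likelihood test, adjusted p 3.01e-72). HIST1H1C, a related linker histone gene, was at -0.08 with an adjusted p of 0.144. Many core histone genes are near-identical copies, and their counts may be shared.

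Genes were also grouped by position, after the data had been seen. On chromosome 8, 57 of 211 tested genes were lower and 23 higher, against 15.6% lower and 16.1% higher over all genes, with a median of -0.19, and -0.08 with the GC and length trend removed. Chromosome 4 had a median of -0.20 (-0.06 with the trend removed) and chromosome 20 one of -0.08 (-0.11 with the trend removed). When tested genes were taken in runs of 25 along each chromosome, the run from RPL7 to INTS8 on chromosome 8 had the lowest median of 239 runs after removal of that trend, -0.35, with 11 genes lower and 2 higher in the test without that removal. A second run on chromosome 8, from UQCRB to EIF3E, was at -0.24. The highest run, on chromosome 6 from HMGA1 to TOMM6, was at 0.28, with 8 genes higher and none lower. Over the 4 genes of the first run with enough counts in K562, the median between the 2 K562 experiments was 0.10. DNA copy number was not measured in these libraries, and its part was not tested.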
